A study of Mus musculus with 2 samples.

Results

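Mouse chromosomes 15 and 16 carried 5566 of the 72970 Tdg peaks called in E14 embryonic stem cells, 3245 on chromosome 15 and 2321 on chromosome 16. All rows of the deposited Bio-Tdg peak list on these chromosomes were taken. The pair had been picked because their telomeric parts differ: on 15 that part is the richer in peaks, on 16 the poorer. That contrast is therefore given as a description, without a test, and the scores, widths and distances of the same peaks are treated in the same way.

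The series holds a ChIP library from cells labelled Bio-Tdg (n = 1) and one from BirA cells that served as a mock (n = 1), both from E14, an established mouse embryonic stem cell line. BirA is a bacterial ligase that attaches biotin to a tagged protein, which is then pulled down with its DNA. No file of the mock was analysed here, so no background stands beside the peaks and no value has a replicate error. The labels do not give the promoter of the tagged Tdg, the clone, or the endogenous Tdg status. Intervals below cover counting error only. They take peaks as independent, and are too narrow where peaks cluster. The total depth of the library is unknown, and positions are in mm9.

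Tdg, thymine DNA glycosylase, removes thymine and uracil from mismatches with guanine, and it also excises 5-formylcytosine and 5-carboxylcytosine, which the Tet enzymes make from methylated cytosine. Base excision repair then restores an unmodified cytosine. In embryonic stem cells this pathway is known for acting at promoters and enhancers, which are unevenly spread along chromosomes. Mouse chromosomes have their centromere at the low-coordinate end, so the near part below is the centromeric one and the far part the telomeric one. As background, the proximal part of chromosome 15 holds genes of classical cadherins in a gene-poor setting, and its distal end holds the Hoxc cluster of homeobox genes and the type II keratins. The proximal part of chromosome 16 holds Crebbp, a histone acetyltransferase gene, and Tbx1, and its distal part holds App, Runx1 and Olig2 beyond long gene-poor stretches. The peaks were not matched to these genes, because no mm9 annotation was used.

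On chromosome 15 the far part held most peaks, and on chromosome 16 the near part did. Chromosome 15 was cut at its midpoint between the first and the last peak, 53294846, which left 647 peaks in the near part and 2598 in the far part. This is a far share of 80.1% (exact 95% Clopper-Pearson interval 78.6 to 81.4%). The density was 12.9 peaks per Mb in the near part (exact 95% Poisson interval 11.9 to 14.0) and 51.9 in the far part (49.9 to 53.9). Chromosome 16, cut at 50772776, had 1665 peaks in the near part and 656 in the far part, a far share of 28.3% (26.4 to 30.1%). Its density was 35.03 peaks per Mb in the near part (33.4 to 36.8) and 13.8 in the far part (12.8 to 14.9). The sparse parts of both chromosomes thus had densities with overlapping intervals, and the rich part of 15 was the denser of the rich parts. The middle peak of chromosome 15 lay at 76.7% of the length and that of chromosome 16 at 30.6%.

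The difference lay in how many peaks a megabase held, and far less in how many megabases held any. Bins of 1 Mb with at least 1 peak were spread almost evenly, with 52.7% of them in the far part of chromosome 15 and 46.6% in that of chromosome 16. The median bin of the near part of chromosome 15 had 7 peaks and that of its far part 31. On chromosome 16 the near median was 23.5 and the far median 6. Over the whole chromosome the median bin had 13 peaks on either one, against 16 on the other 17 autosomes. Empty bins numbered 8 of 101 on chromosome 15 and 8 of 96 on chromosome 16, where 7.68% of the bins of the 19 autosomes were empty. Of the empty bins 6 were in the near part of 15 and 2 in its far part, and on 16 there was 1 in the near part and 7 in the far part.

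**Figure D1:**
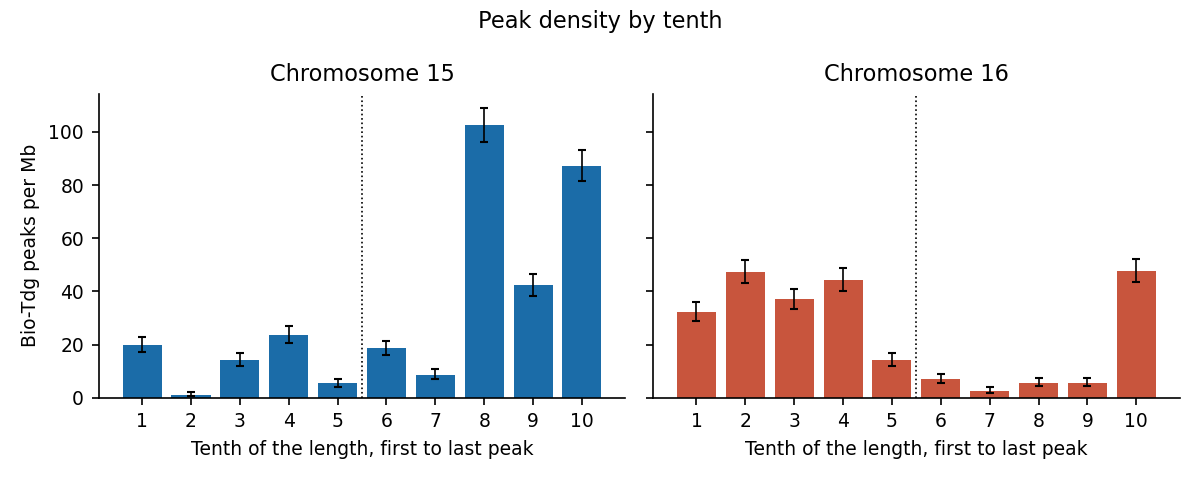
Peaks per Mb (vertical axis) in 10 equal segments between the first and the last peak (horizontal axis), with exact 95% Poisson intervals as bars on the columns; the dotted line is the midpoint. Segments 8 and 10 of chromosome 15 reach 102.5 and 87.3 peaks per Mb, while segment 10 of chromosome 16, in its poorer part, reaches 47.8.

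Neither chromosome showed an even slope. In 10 equal segments of 10.01 Mb, chromosome 15 had 200, 12, 144, 237 and 54 peaks in the near part and 186, 87, 1027, 424 and 874 in the far part. Segments 6 and 7, although in the far part, were no denser than segments 1 and 4, at 18.6 and 8.69 peaks per Mb against 19.97 and 23.7. The rise came between segments 7 and 8, where the density went from 8.69 (6.96 to 10.7) to 102.5 peaks per Mb (96.4 to 109). Segment 2 was the emptiest, with 1.20 peaks per Mb (0.619 to 2.09).

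Chromosome 16 was not the mirror image of chromosome 15. In segments of 9.51 Mb it had 307, 450, 352, 421 and 135 peaks in the near part and 68, 26, 54, 54 and 454 in the far part. Segment 10 was the fullest of the chromosome, with 47.8 peaks per Mb (43.5 to 52.4), although its interval overlapped that of segment 2 at 47.3 (43.1 to 51.9). It supplied 19.6% of all peaks of the chromosome. Without it, the far share of chromosome 16 dropped from 28.3 to 10.8%. The poor far part of chromosome 16 was thus made of 4 sparse segments with 2.74 to 7.15 peaks per Mb and 1 full one.

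**Figure D2:**
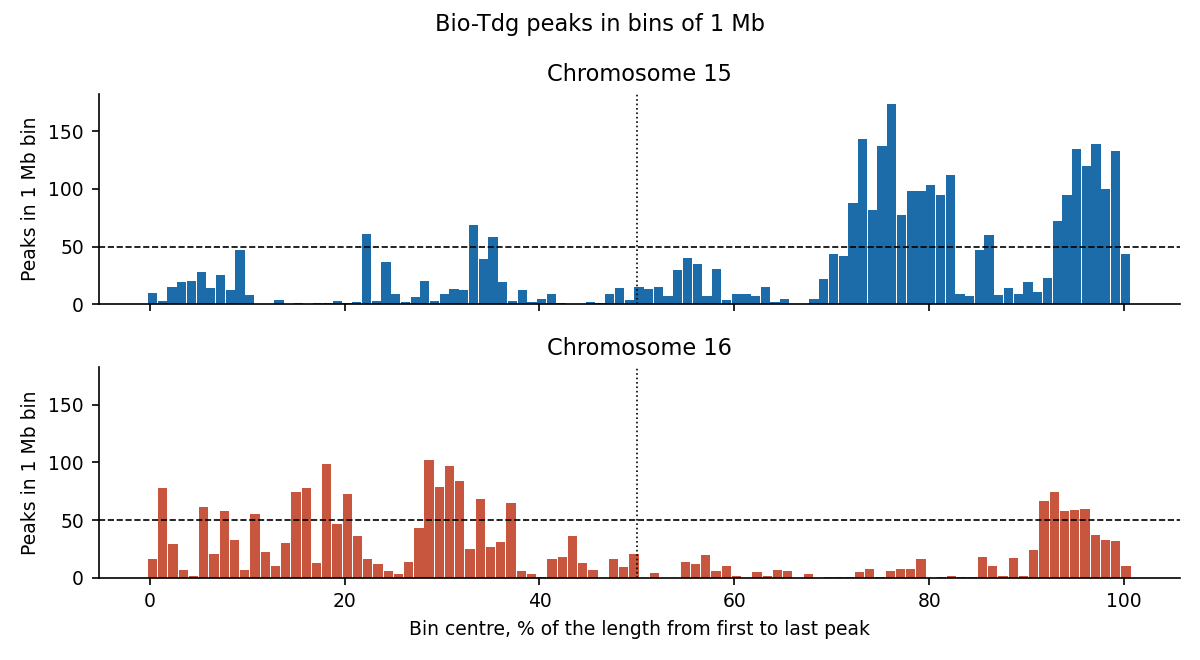
Peaks in each 1 Mb bin (vertical axis) against the place of the bin's centre as a percentage of the length from first to last peak (horizontal axis). The dashed line marks the 50 peaks from which a bin is called dense; chromosome 15 has 19 of its 22 dense bins beyond the dotted midpoint and chromosome 16 has 14 of its 19 before it.

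Dense megabases, taken as 1 Mb bins with at least 50 peaks, numbered 22 of 101 on chromosome 15 and 19 of 96 on chromosome 16, where 21% of the bins of the 19 autosomes were dense. Their number was thus near the background, and their places differed. On chromosome 15, 19 of the 22 lay in the far part, and all but 1 of these 19 formed 2 uninterrupted blocks. The first block, chr15:75000001-86000000, had 11 bins of 77 to 174 peaks, 1207 peaks in all and 37.2% of the chromosome. The second, chr15:96000001-103000000, had 7 bins of 72 to 139 peaks, 794 in all and 24.5%. The 10 Mb between them, chr15:86000001-96000000, held 207 peaks, or 20.7 per Mb, with bins of 7 to 60 peaks. The near part had only 3 dense bins, each alone, of 61, 69 and 58 peaks.

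Chromosome 16 had more scattered dense bins. The 14 of its near part fell into 10 separate places, of which the longest was chr16:30000001-34000000 with 4 bins of 79 to 102 peaks and 362 in all. The far part had a single block, chr16:90000001-95000000, with 5 bins of 58 to 74 peaks and 318 in all, which is 13.7% of the chromosome. Before that block, chr16:41000001-90000000 held 361 peaks in 49 Mb, or 7.37 per Mb, and no bin there exceeded 36 peaks.

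The 5 fullest bins of chromosome 15 were all in the far part. They were chr15:79000001-80000000 with 174 peaks, chr15:76000001-77000000 with 143, chr15:100000001-101000000 with 139, chr15:78000001-79000000 with 137 and chr15:98000001-99000000 with 135. All 5 on chromosome 16 were in the near part. They were chr16:30000001-31000000 with 102, chr16:20000001-21000000 with 99, chr16:32000001-33000000 with 97, chr16:33000001-34000000 with 84 and chr16:31000001-32000000 with 79. In the fullest 10% of the bins lay 42.96% of the peaks on chromosome 15 and 36.1% on chromosome 16, beside 38.6% on the other 17 autosomes.

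Long stretches without a peak lay on the opposite sides. Chromosome 15 had 31 stretches over 0.5 Mb, 21 in the near part and 10 in the far part, with 34.0 Mb in all. Chromosome 16 had 32, 8 near and 24 far, with 34.1 Mb in all, so the total empty length was almost equal. The 3 longest of chromosome 15 were chr15:45505569-48621036 (3.12 Mb) and chr15:13313341-16060499 (2.75 Mb) in the near part and chr15:68760344-71558103 (2.80 Mb) in the far part. Those of chromosome 16, chr16:52453914-55469111 (3.02 Mb), chr16:60606694-62757998 (2.15 Mb) and chr16:67662401-69577231 (1.91 Mb), were all in the far part. Assembly gaps and sequence to which reads cannot be mapped were not separated from these stretches.

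On both chromosomes the median score was higher in the part with more peaks, by a smaller margin and less firmly on 16. The score is the authors' value per peak. MACS 1.4 derives it from the p-value of a peak, multiplying its log10 by −10, so that a higher score stands for a smaller p-value. On chromosome 15 its median was 465 (quartiles 317 and 958) in the near part and 605 (345 and 1222) in the far part. On chromosome 16 it was 558 (334 and 1132) in the near part and 482 (324 and 956) in the far part. The quartile ranges overlapped widely on both chromosomes. Of the far peaks of chromosome 15, 61.4% (59.5 to 63.2%) scored above the near median, and of those of chromosome 16, 43.6% (39.8 to 47.5%) did. Segment 10 held 454 of the 656 far peaks of chromosome 16, and without it that share was 45.5% (38.5 to 52.7%), an interval that includes the 50% of an equal median. With only peaks scoring 1000 or more, the share on chromosome 16 was 47.5% (39.5 to 55.6%), again with 50% inside the interval.

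Widths and reads behaved like the scores, to which they are tied by the way a score is computed. The median width was 777 bp in the near and 886.5 bp in the far part of chromosome 15, and 849 and 776.5 bp on chromosome 16. Whole reads per peak could be read back from score and width for 3151 peaks on 15 and 2265 on 16. Their median was 35.5 near and 45 far on chromosome 15, and 41 near and 37 far on chromosome 16. Read density differed least, with medians of 48.1 and 50.8 reads per kb on chromosome 15 and 49.6 and 48.1 on chromosome 16. The libraries carry no stated molecular identifiers, so reads may include copies of 1 molecule.

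Stronger peaks were split between the parts in the same direction as the whole set. Peaks with a score of at least 1000 numbered 954 on chromosome 15 (29.4%) and 640 on chromosome 16 (27.6%), beside 28.4% on the 19 autosomes. On chromosome 15 they made up 23.8% (20.6 to 27.3%) of the near and 30.8% (29.02 to 32.6%) of the far peaks, and on chromosome 16 28.9% (26.8 to 31.2%) and 24.1% (20.9 to 27.5%). The far part held 83.9% (81.4 to 86.1%) of them on chromosome 15 and 24.7% (21.4 to 28.2%) on chromosome 16. These intervals touch or overlap those of all peaks. Peaks at 1000 or more are part of all peaks, so the overlap does not show that the splits are equal. Their shares of the near and the far peaks had separate intervals on chromosome 15 and overlapping ones on chromosome 16. At scores of 3076 or more the caller's p-value reached the limit of double precision and the score no longer ranks peaks. Such peaks numbered 94 on chromosome 15 and 56 on chromosome 16, or 2.90 and 2.41%, beside 2.8% on the 19 autosomes. Of them 83 of 94 were in the far part of 15 and 12 of 56 in that of 16.

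**Figure D3:**
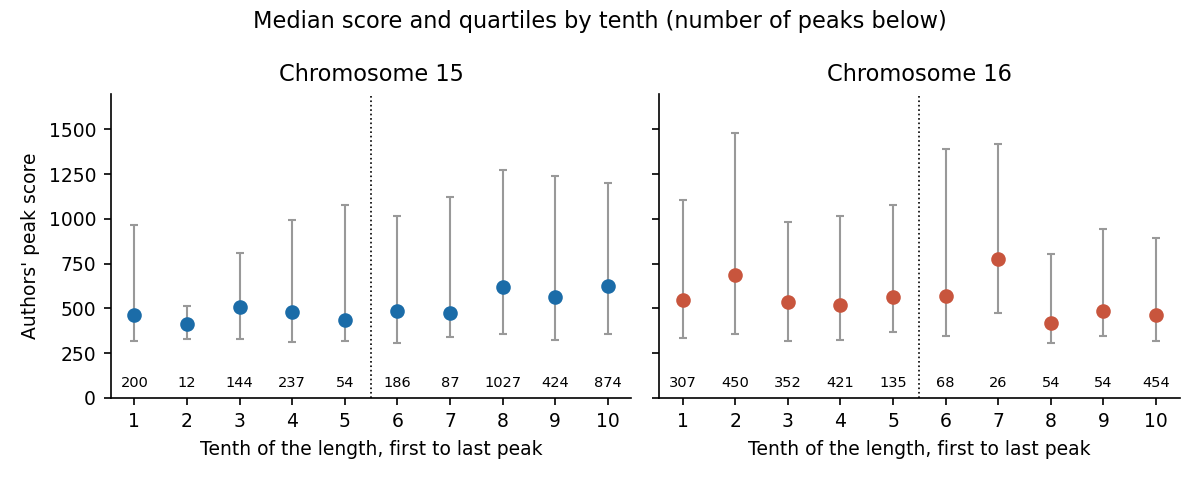
Median of the authors' score (points, vertical axis) with the lower and upper quartile (bars) in 10 equal segments from first to last peak (horizontal axis), with the number of peaks printed under each. Segments 8 and 10 of chromosome 15 have medians of 621 and 624, and segment 10 of chromosome 16 has 461, below its segments 1 to 5.

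Along chromosome 15 the median score was 410 to 506 in segments 1 to 7 and 564 to 624 in segments 8 to 10, so scores stepped up at the same place as the density. Along chromosome 16 scores and density parted. Segment 2 had the highest median among the full segments, at 684, and 24 of the 56 peaks at the ceiling. The sparse segment 7 had 773, from only 26 peaks. Segment 10, which had the most peaks, had a median of 461, a width of 771 bp and 22.03% (18.3 to 26.1%) of its peaks at 1000 or more. In segment 2, of almost equal density, that share was 36.2% (31.8 to 40.9%). Over the other 17 autosomes, 25 such segments had 40 to 60 peaks per Mb, a range chosen after the values were seen. Their median scores ran from 474 to 683 with a middle value of 572, and 0 of the 25 were below the 461 of segment 10 of chromosome 16.

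Scores also differed between the parts within broad classes of density. In bins of 50 to 99 peaks the median score on chromosome 15 was 482 in the near part (188 peaks in 3 bins) and 605 in the far part (765 peaks in 9 bins). On chromosome 16 it was 574 in the near part (969 peaks in 13 bins) and 476 in the far part (318 peaks in 5 bins). These 318 are the single block chr16:90000001-95000000. The bins were not matched in density within a class, and the intervals below do not allow for the few bins. The other 17 autosomes had 555 in such bins. The share at a score of 1000 or more was 30.4% (27.6 to 33.4%) near and 22.3% (17.9 to 27.3%) far on chromosome 16, and 24.5% (18.5 to 31.3%) near and 29.5% (26.3 to 32.9%) far on chromosome 15, where the intervals overlap. In bins of 1 to 19 peaks the far part had the higher median on both chromosomes, 520.0 against 445 on 15 and 524 against 449 on 16. The direction of chromosome 16 was therefore the opposite in its sparse bins.

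**Figure D4:**
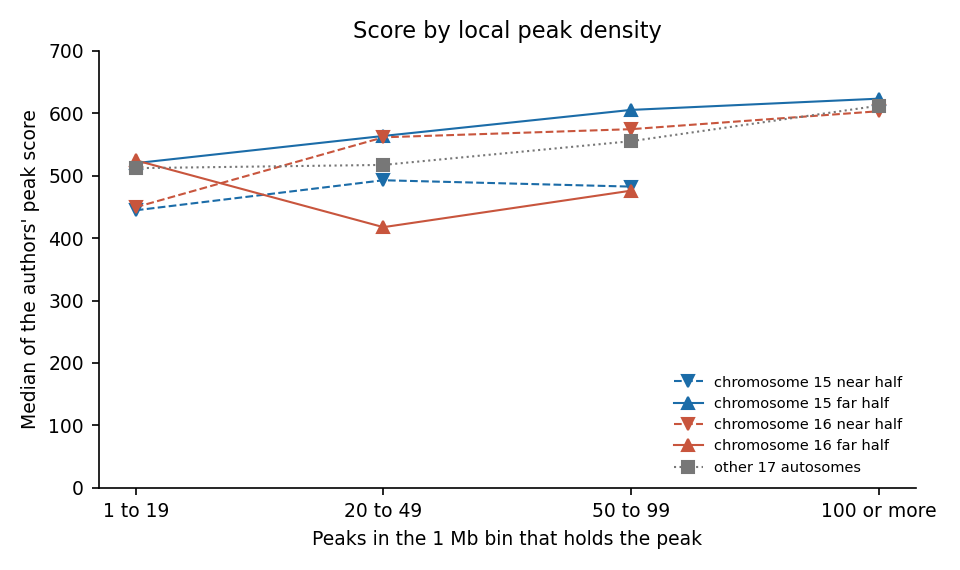
Median of the authors' score (vertical axis) for peaks grouped by the number of peaks in their 1 Mb bin (horizontal axis), for the near and the far part of chromosomes 15 and 16 and for the other 17 autosomes. In bins of 50 to 99 peaks the far part of chromosome 15 (605) and the near part of chromosome 16 (574) lie above the other autosomes (555), and the near part of 15 (482) and the far part of 16 (476) below.

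Bin by bin, the 3 dense bins in the near part of chromosome 15 had median scores from 444 to 503, all below the 555 of all autosomal peaks. In its far part the 19 dense bins ran from 397 to 819, and 14 of them exceeded 555. In the near part of chromosome 16 the 14 dense bins ran from 459 to 1078, with 9 above 555, and in the far part the 5 ran from 388 to 583, with 1 above. The ranges overlapped on both chromosomes. On the other 17 autosomes 56.0% of 468 dense bins exceeded that value. Across bins with at least 5 peaks, the count and the median score were weakly related, with Spearman's rho of 0.168 over 74 bins of chromosome 15 and 0.104 over 70 of chromosome 16; all bins share 1 library.

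Distances between the midpoints of neighbouring peaks followed the density. Their median was 13752.5 bp in the near and 5219 bp in the far part of chromosome 15, and 8319.5 and 11912.5 bp on chromosome 16. Of the distances, 28.5% near and 48.4% far were under 5 kb on chromosome 15, and 36.6% and 30.5% on chromosome 16, beside 40.4% on the 19 autosomes. Peaks with no neighbour within 50 kb made up 10.4% (8.12 to 12.96%) of the near and 2.16% (1.63 to 2.79%) of the far peaks of chromosome 15. On chromosome 16 they made up 4.68% (3.72 to 5.81%) and 8.38% (6.38 to 10.8%), beside 4.65% on the 19 autosomes.

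Relative to the length available per peak, neighbours were closer in the sparse parts than in the rich ones. The median distance was 0.178 times the length per peak in the near part of chromosome 15 and 0.164 times in the far part of chromosome 16. In the rich parts it was 0.271 times on 15 and 0.291 times on 16. The median distance thus differed by 1.43 times between the parts of chromosome 16, where the density differed 2.54 times. Runs of 4 or more peaks, each less than 1 kb from the next, numbered 1 in the near and 32 in the far part of chromosome 15, and 14 and 3 on chromosome 16. These counts come from 647 and 2598 peaks on 15 and 1665 and 656 on 16. No count of runs over the 19 autosomes stands beside them. The share of peaks in runs of 2 or more was 24.4% near and 38.9% far on chromosome 15, but 28.3% and 28.5% on chromosome 16.

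Single peaks were picked by rank within each chromosome. The highest scores on chromosome 15 included 3233 at chr15:25550912-25553622 and 3217 at chr15:25341539-25344860, both in the near part and 206 kb apart. Although the near part was sparse, both lay in 1 of its dense bins, chr15:25000001-26000000, with 61 peaks. The other, 3224, was at chr15:84061255-84063939 in the far part. On chromosome 16 the highest scores were at chr16:31506514-31509775, chr16:20498050-20500069 and chr16:18585787-18589681, all near, with 3233, 3199 and 3179. All 6 are at the ceiling, where the score no longer ranks peaks, so they are not shown to be the strongest. The widest peaks named next are at the ceiling too, each with a score of 3100. The widest peaks of chromosome 15 were all far, at chr15:98817423-98824805 (7383 bp), chr15:102071918-102078892 (6975 bp) and chr15:76024970-76030695 (5726 bp). Those of chromosome 16 were all near and narrower, at chr16:4556459-4561356 (4898 bp), chr16:30062982-30067809 (4828 bp) and chr16:20714731-20719023 (4293 bp).

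Read density, which could be recovered only below the ceiling, gave another order. The highest values on chromosome 15 were 108.3 reads per kb at chr15:85464413-85466056, 107.6 at chr15:37889883-37891537 in the near part and 102.3 at chr15:78743707-78745582. On chromosome 16 they were 109.7 at chr16:20240367-20241934, 106.2 at chr16:8671365-8672823 and 100.8 at chr16:57230983-57232252, the last in the sparse far part. Among peaks below the ceiling, the top 3 densities therefore differed little between the chromosomes, and some lay in parts that were sparse as a whole. The bins of these peaks were not sparse. On chromosome 15 the bin chr15:37000001-38000000 had 39 peaks, and on chromosome 16 the bin chr16:57000001-58000000 had 20. The median bin of the other 17 autosomes had 16. Peaks at the ceiling could not enter this order, and most lay in the rich parts, 83 of 94 on 15 and 44 of 56 on 16. The order of all peaks by read density is thus unknown.

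The longest runs of peaks less than 1 kb apart were chr15:75710908-75725459, with 8 peaks over 14552 bp and 74.9% of it covered, chr15:102069311-102083028 (3 peaks, 13718 bp) and chr15:89002635-89015498 (7 peaks, 12864 bp), all in the far part. On chromosome 16 they were chr16:30062198-30071137 (4 peaks, 8940 bp) and chr16:4600923-4609154 (5 peaks, 8232 bp) near and chr16:90137500-90145840 (4 peaks, 8341 bp) far. The outermost peaks were chr15:3220374-3221240 and chr15:103366974-103369319, with scores of 553 and 2452, and chr16:3241184-3241693 and chr16:98302797-98304369, with 298 and 1882. On both chromosomes the last peak thus scored above the first.

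Among the 19 autosomes, chromosome 15 had the highest and chromosome 16 the lowest far share, which is how the pair was picked. The other 17 ran from 30.9 to 76.6%. Chromosome 15 also stood at the end of the order for score, since its 61.4% of far peaks above the near median compares with 43.5 to 56.3% on the other 17. Its far-to-near ratios were 1.30 for the median score and 1.14 for the median width, with ranges of 0.872 to 1.15 and 0.912 to 1.08 on the other 17. Its ratio of median distances, 0.379, was below their range of 0.485 to 1.70. Chromosome 16 was second lowest by the share of far peaks above the near median, at 43.6%. Below it was chromosome 19 at 43.5%, with 1211 peaks in either part. Chromosomes 7 and 17 were both at 43.9%, with far shares of 51.9 and 30.9%. The score share of chromosome 16 was thus also found without a poorer far part. The ratio of median scores on chromosome 16, 0.863, was just below the range of the other 17, and its ratio of median widths, 0.915, was inside theirs. Its distance ratio of 1.43 lay inside the range of the others.

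**Figure D5:**
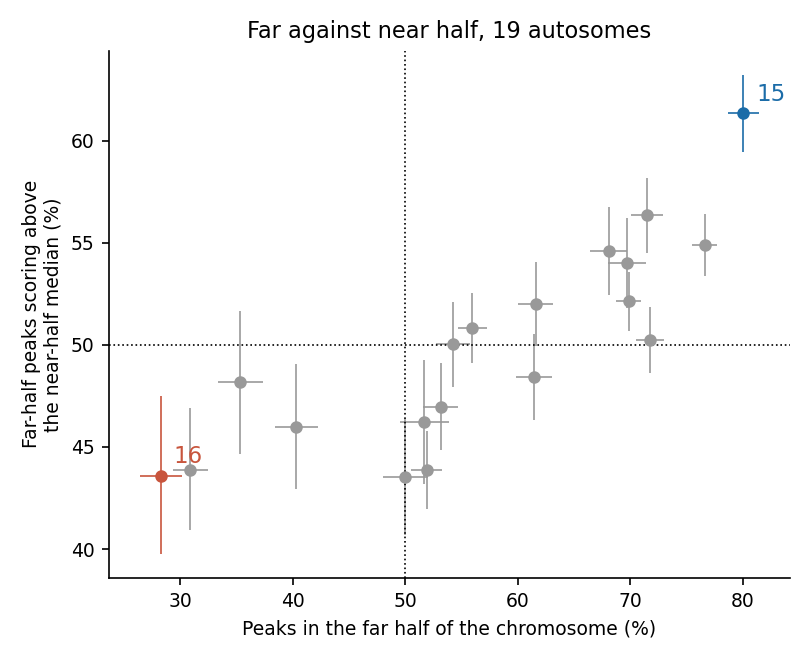
Share of far peaks scoring above the near median (vertical axis, %) against the share of peaks in the far part (horizontal axis, %) for the 19 autosomes, with exact 95% Clopper-Pearson intervals; dotted lines mark 50%. Chromosome 15 lies at 80.1 and 61.4%, apart from the rest, and chromosome 16 at 28.3 and 43.6%, beside another autosome at 30.9 and 43.9%.

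The far share and the score share went together over the autosomes. Spearman's rho was 0.889 over all 19 and 0.855 over the 17 without chromosomes 15 and 16, given as a description since all values come from 1 library. Of the 14 autosomes with the richer far part, 10 had more than 50% of the far peaks above the near median, and all 4 with the poorer far part had less than 50%. Many of these shares are close to 50%. Of the other 17 autosomes, 7 had the score share on the same side as the far share with an interval clear of 50%, 3 had it clear on the opposite side, 6 had an interval that includes 50%, and 1 had equal peak numbers in both parts. On chromosome 15 both values were the highest of the 19.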

How the data were processed

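The labels describe ChIP of fixed E14 cells, sonicated, with libraries from a NEBNext kit; 1 Bio-Tdg and 1 mock library form the series, and only the Bio-Tdg peak list was analysed. Per the submitters' processing notes, CASAVA 1.8, Bowtie 0.12.7, MACS 1.4.1 and mm9 were used, with no role given; how peaks were thresholded, and against which control, is not given in the sources used here. The deposited score is the authors' value per peak. Deposited starts and ends were printed counting from 1.

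Chromosomes 15 and 16, and the gene lists set aside for an annotated analysis, were chosen with earlier results of these data known. Peaks were assigned by midpoint to 2 parts, 10 segments and 1 Mb bins. Named peaks and bins are the top ranks per chromosome (5 bins, 3 stretches, 3 peaks by score, width and read density, 3 runs, first and last). Reads per peak were recovered as the whole number whose Poisson score at a fitted rate of 1.13 reads per kb, over a width of at least 370 bp, matched the deposited score within 0.01, which held for 70938 of 70938 peaks scoring below 3076. The same rate served all of these peaks, so their scores show no term for the local background of a peak. The role of a control in the calling cannot be told from this. On simulated scores 100% were recovered. Those scores were made with the same formula and a single rate, so this checks the computation only and not the reads of the real peaks. Intervals are exact at 95%. No test was made, as each group has 1 library. Comparisons that need mm9 genes or sequence were not run. The tools were Python 3.11.15 with scipy 1.17.1, numpy 2.4.6, pandas 2.3.3 and, for figures, matplotlib 3.10.9.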

Additional observations from a re-analysis of the deposited data

How the results depend on the processing

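Of 100 values under other settings 0 changed side, 51 stayed within the interval of the reported value and 49 left it; the cause was not tested except where the setting itself removes peaks. The 100 are not separate checks, since the far share and the far-to-near ratio restate the same split. The shares of peaks in the fullest 10% of bins had no side to change. On chromosome 16 the side of the score and width contrasts was often not firm: the interval of the share above the near median included 50% in 1 of 10 settings by score and 0 of 9 by width on chromosome 15, and in 5 of 10 and 5 of 9 on chromosome 16, where 2 of the settings leave out the same segment. At a score of at least 500 the far share was 83.2% on chromosome 15 and 25.8% on 16, and the far-to-near ratio of peaks per Mb 4.97 and 0.347. At 1000 these were 83.9 and 24.7%, and 5.19 and 0.328. The far peaks above the near median made up, on 15, 52.5% (49.99 to 55.1%) by score and 55.7% by width at 500, and 56.75 and 57.6% at 1000. On 16 they made up 47.3% (41.6 to 53.0%) at 500 by score and by width alike, and at 1000 47.5% (39.5 to 55.6%) by score and 44.9% (37.0 to 53.0%) by width. Far distances above the near median made up 13.2 and 13.4% on 15, and 70.1% on 16 at 1000. Merging peaks within 1 kb gave, on 15, a far share of 78.1%, a ratio of 3.56 and 63.2% by width, and on 16 45.8% (41.6 to 50.01%) by score and 47.4% (43.2 to 51.6%) by width. Merging within 5 kb gave 72.3 and 30.8%, ratios of 2.60 and 0.445, and on 15 63.8% by score and 27.9% of distances. Without the 5 fullest bins the far share was 74.3 and 35.3%, the ratio 2.89 and 0.545, and distances 27.1 and 53.6%. Bases covered gave 82.1% on 15. Bins with a peak gave 52.7 and 46.6%, shares that could not move far from 50%, as few bins were empty. Without the fullest segment, chosen after seeing the data, the far share was 70.8 and 10.8%, the ratio 2.43 and 0.121, and distances 26.8 and 74.6%; on 16 the far peaks above the near median were then 45.5% (38.5 to 52.7%) by score and 46.04% (39.0 to 53.2%) by width. Without segment 10, also chosen afterwards, they were 72.7%, 2.66 and 25.2% on 15; on 16 it is the fullest segment, so its values are those just given. Smaller and larger bins (0.5 and 2 Mb) put 39.9 and 33.0% of the peaks of 16 in the fullest 10% of bins. No paired analysis was possible because the Bio-Tdg list is a single library and the mock was not analysed here. The depth of the library and the threshold for a peak are unknown, so a stretch without peaks does not show missing binding.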

Other observations

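Relative to protein-coding genes, chromosome 15 had more peaks than chromosome 16. Its 3245 peaks and 776 protein-coding genes of the RefSeq annotation of the later build GRCm38.p6 gave 4.18 peaks per gene (exact 95% Poisson interval 4.04 to 4.33), a value that 5 other autosomes, at 3.998 to 4.18, share within overlapping intervals. Chromosome 16, with 679 genes, had 3.42 (3.28 to 3.56) and ranked 11 of 19. Genes were counted per chromosome only and were not placed along it.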
